A study of Mus musculus with 24 samples.

Results

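Expression of Myc and of 42 genes of the nucleolus and of ribosome assembly was followed in 24 RNA sequencing libraries of sorted hematopoietic stem cells (HSCs) of mice, from which all blood lineages arise. The 43 genes were a list of symbols, and each symbol was matched to 1 of the 55487 Ensembl gene IDs counted in every library. The series concerns PUS10, a pseudouridine synthase, in the aging of HSCs, and its libraries form 3 experiments. One set PUS10 overexpression (PUS10-OE, n = 3) against Vector cells (n = 3). Another set knockdown of a microRNA, miR-139 (miR139-KD, n = 6), against NTC, its non-target control (n = 6). The last set cells labelled Pus10-KO (n = 3) against Pus10-WT cells (n = 3). The labels used here state neither the age, sex and strain of the mice nor the vector, the knockdown agent, the Pus10-KO allele, or whether animals were pooled. Nor do they say whether replicate libraries are separate animals, and the p-values therefore refer to the spread of these libraries only.

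Ribosomes are built in the nucleolus. RNA polymerase I transcribes a long precursor of ribosomal RNA, small nucleolar ribonucleoproteins modify it, and large assemblies of proteins fold and cut it into the RNAs of the small (40S) and the large (60S) subunit. Myc is a transcription factor that binds DNA together with Max at the E-box CACGTG and is known to drive many genes of this pathway, and stem cells at rest are known for a low rate of protein synthesis. By role, the list held Myc, 4 subunits of RNA polymerase I (Polr1a, Polr1b, Polr1c and Polr1e), 6 nucleolar scaffold and helicase proteins, 5 enzymes and core proteins that modify ribosomal RNA, 13 factors of the small subunit and 14 factors of the large subunit.

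Counts assigned to genes ranged from 34.2 to 47.3 M (mega) in the PUS10 overexpression experiment, from 9.87 to 14.7 M in the miR-139 experiment and from 11.9 to 18.2 M in the Pus10 knockout experiment. All 43 genes were tested in each comparison, and the lowest count of any of them in a library was 197 for Rrp12, 47 for Tsr1 and 68 for Noc3l in the 3 experiments in that order. Of 13 HSC markers, 11 were detected in all 24 libraries, and Fgd5 and Hoxb5 were at 0 in some NTC libraries. Pus10 itself lay at 241.5 to 284.7 CPM in PUS10-OE and at 53.6 to 92.8 CPM in Vector (log2 fold change 1.76, edgeR adjusted p = 0.278, SE 0.197). In the libraries labelled Pus10-KO it lay at 33.7 to 36.3 CPM, not below the 19.6 to 33.8 CPM of Pus10-WT. The direction of every result of that experiment therefore rests on the label. The method does not capture mature microRNAs, so the knockdown of miR-139 itself was not checked. Levels are CPM, counts scaled to a common library size after TMM normalisation within each experiment.

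The control cells expressed the whole list. Divided by the length of the longest principal transcript, the median gene lay at 45.9 CPM per kb in Vector, 43.5 in NTC and 27.7 in Pus10-WT, with all 24 libraries scaled together. Npm1, the nucleolar chaperone nucleophosmin, had the highest level per kb in all 3 groups, at 1076 ± 18.4 CPM per kb in Vector (SD, n = 3), 1190 ± 261 in NTC (SD, n = 6) and 797.5 ± 113 in Pus10-WT (SD, n = 3). By this measure Myc followed at 522 ± 82.2 in Vector and 331 ± 24.2 in Pus10-WT. In NTC it lay at 271 ± 64.1, below Emg1, an enzyme that methylates a pseudouridine of 18S ribosomal RNA, at 371 ± 33.1. The least expressed genes per kb were Rrp12, an export factor of pre-ribosomes, in Vector (1.31 CPM per kb) and Pus10-WT (2.92), and Noc3l, an early large subunit factor, in NTC (4.92). A long annotated transcript lowers such a level, as for Wdr12 with 10012 bases and Ncl with 8202. A short one raises it, as for Myc with 1365 bases, where 2717 exonic bases are annotated. The rank of Myc therefore depends on the transcript used.

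The control groups of the 3 experiments did not have one common level of these genes. Groups of Vector and Pus10-WT libraries did not overlap for 29 genes, of which 25 were higher in Vector (24.1% of all genes) and 4 lower (25.8%). Between NTC and Pus10-WT, 11 genes were separated, all higher in NTC (12.8% of all genes). Between Vector and NTC, 16 were higher in Vector (21.3%) and 14 lower (17.9%). Fbl, fibrillarin, the methyltransferase of box C/D ribonucleoproteins, lay at 33.3 ± 2.94 CPM per kb in Vector, 195 ± 35.8 in NTC and 87.1 ± 13.3 in Pus10-WT. Nop56, which sits in the same particle as Fbl, had the opposite order for Vector and NTC, at 419 ± 39.8 and 208 ± 39.3. The experiment and its control group cannot be told apart here, so each treated group was compared with its own controls only.

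A pair of sequence features was looked up for the list, and no link to the fold changes was tested. The first is the E-box, searched in the 300 bases that run from 250 before to 50 after the annotated start in RefSeq (GRCm38.p6). Of the list, 36 genes matched the promoter table, and 8 of them (22.2%) held CACGTG, a sequence that reads the same on both strands: Imp4, Nop2, Ltv1, Utp20, Pes1, Mybbp1a, Tsr1 and Wdr43. The share was 8.09% of the 27025 genes in the table and 11.4% of the 11287 expressed genes with a promoter there. Rrp12, Bop1, Myc, Rrs1, Npm1, Fbl and Gnl2 were not matched. The promoters of 3 genes that hold the motif and had a low unadjusted p in the libraries labelled Pus10-KO are shown with that of Nop56, the gene with the lowest p in miR139-KD, with the E-box in capitals. Rrp9, Bysl and Imp3, also lower there at an edgeR unadjusted p under 0.05, and Noc2l, higher, had no CACGTG in this window. Nop2 lies at chr6:125131633-125131932 on the plus strand, with the motif 60 bases before the start. Utp20 lies at chr10:88826765-88827064 on the minus strand, with the motif 37 bases after the start, and Pes1 at chr11:3963725-3964024 on the plus strand, 2 bases after it. Nop56 lies at chr2:130274162-130274461 on the plus strand, where the letters CACGTG do not occur.
Nop2: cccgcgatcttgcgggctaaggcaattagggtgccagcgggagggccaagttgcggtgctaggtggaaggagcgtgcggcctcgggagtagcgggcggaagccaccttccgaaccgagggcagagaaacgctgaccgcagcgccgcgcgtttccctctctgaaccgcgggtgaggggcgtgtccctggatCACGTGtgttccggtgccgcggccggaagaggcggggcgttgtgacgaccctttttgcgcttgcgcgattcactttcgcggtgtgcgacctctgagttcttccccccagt
Utp20: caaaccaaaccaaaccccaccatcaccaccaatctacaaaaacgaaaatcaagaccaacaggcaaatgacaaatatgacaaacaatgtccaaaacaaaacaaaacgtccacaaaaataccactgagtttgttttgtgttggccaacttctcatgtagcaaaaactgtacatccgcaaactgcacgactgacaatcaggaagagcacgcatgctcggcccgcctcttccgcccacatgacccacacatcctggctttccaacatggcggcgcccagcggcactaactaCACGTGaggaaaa
Pes1: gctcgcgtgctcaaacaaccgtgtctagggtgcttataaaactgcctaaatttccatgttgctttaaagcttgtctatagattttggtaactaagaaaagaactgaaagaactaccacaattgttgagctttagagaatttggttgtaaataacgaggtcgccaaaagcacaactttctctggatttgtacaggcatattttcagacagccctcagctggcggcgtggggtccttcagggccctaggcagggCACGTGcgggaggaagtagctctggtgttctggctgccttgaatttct
Nop56: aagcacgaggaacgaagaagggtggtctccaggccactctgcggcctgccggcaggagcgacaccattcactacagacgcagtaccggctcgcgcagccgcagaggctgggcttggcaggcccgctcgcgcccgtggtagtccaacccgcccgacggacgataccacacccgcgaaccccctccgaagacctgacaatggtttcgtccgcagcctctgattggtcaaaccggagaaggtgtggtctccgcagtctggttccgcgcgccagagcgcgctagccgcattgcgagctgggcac

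The second is miR-139, the microRNA that was knocked down. Its hairpin gives 2 mature strands from the plus strand of chromosome 7, miR-139-5p at chr7:101475382-101475403 and miR-139-3p at chr7:101475418-101475439 (RefSeq, GRCm38.p6). They are shown with the seed, bases 2 to 8, in capitals, because a target is recognised mainly by pairing with it.
miR-139-5p: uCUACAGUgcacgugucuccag
miR-139-3p: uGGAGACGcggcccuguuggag
The 2 seeds differ, and the matching sites are ACTGTAG for the 5p strand and CGTCTCC for the 3p strand. In annotated 3' regions downstream of the stop codon, 3 of 42 genes of the list held a 5p site (7.14%, against 12% of 11055 expressed genes) and 0 of 42 a 3p site (3.6%). The genes were Wdr12 with 2 sites, at bases 4649 and 6635 of 8379, Ddx21, at 1566 of 2099, and Ncl, at 3403 of 5901. Whether the transcripts in these cells reach that far was not tested. The sites are shown with the 7 matching bases in capitals.
Wdr12, first site: gtgacacaggtACTGTAGtacttgaaaac
Wdr12, second site: cagatggcataACTGTAGgtgcagtgaca
Ddx21: ctttgttgataACTGTAGcttgtaagaaa
Ncl: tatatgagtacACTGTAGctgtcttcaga
Nop56, which passed the test in miR139-KD, was not among the genes with a site. Nor was Myc, which also passed, but the search covered 42 of the 43 genes and only their principal transcripts. For Myc that transcript holds 1365 of 2717 annotated exonic bases, so the search cannot tell whether Myc has a site.

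In PUS10-OE, no gene of the list passed the test against Vector, and the list as a whole lay where all genes lay. Of the 43 genes, 23 had a log2 fold change above 0 (50.7% of all genes) and 20 below (49.3%), with a median of 0.02, against 0.01 over the 14834 genes tested. The smallest edgeR adjusted p in the list was 0.393. With edgeR, 0.0% of all genes passed in either direction. At an unadjusted p under 0.05 there were 2 higher genes, Emg1 and Rrp12 (4.47% of all genes), and 0 lower ones (3.72%). Log2 fold changes ran from -0.32 for Nop14 to 0.86 for Rrp12.

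Emg1 lay at 284, 276 and 279 CPM in Vector and at 335, 336 and 348 CPM in PUS10-OE. All 3 treated libraries were above all controls, by 0.28 on the log2 scale (edgeR adjusted p = 0.393, SE 0.0756). Rrp12 was the weakest expressed gene of the list, at 5.17, 4.78 and 5.83 CPM in Vector and 10.3, 10.8 and 7.55 CPM in PUS10-OE. Its log2 fold change was 0.86 (edgeR adjusted p = 0.456, SE 0.267), again with no overlap between the groups. Utp20, a very large scaffold protein of the small subunit processome, was also separated, at 20.5, 19.2 and 19.6 CPM against 24.4, 22.5 and 27.9. Its log2 fold change was 0.34 (edgeR adjusted p = 0.706, SE 0.170). In all, 3 genes were separated upward (8.31% of all genes) and 1 downward (6.75%). The latter was Gnl2, a GTPase of the pre-60S particle, with 154, 185 and 158 CPM in Vector and 153, 109 and 144 CPM in PUS10-OE (log2 fold change -0.29, edgeR adjusted p = 0.706, SE 0.148).

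Myc did not pass in this comparison. It lay at 711, 723 and 541 CPM in Vector and 578, 485 and 582 CPM in PUS10-OE, so that the lowest control library fell within the treated range. The log2 fold change was -0.26 (edgeR adjusted p = 0.698, SE 0.132). Nop16, a large subunit factor named as a Myc-responsive nucleolar protein, leaned the other way, at 286, 305 and 266 CPM against 342, 337 and 303 (0.20, edgeR adjusted p = 0.660, SE 0.0922). By role, 3 of 4 polymerase subunits, 8 of 13 small subunit genes and 6 of 14 large subunit genes had a log2 fold change above 0. No role had a median farther from 0 than Myc's own value.

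In miR139-KD, Myc and Nop56 fell, and most of the list lay a little below its controls. Of the 43 genes, 34 had a log2 fold change below 0 (48.6% of all genes) and 9 above (51.4%), and the median was -0.16, against 0.02 over the 13295 genes tested. The fall passed the edgeR test for 2 genes (1.31% of all genes) and 0 rose (1.41%). At an unadjusted p under 0.05, 10 were lower (8.0% of all genes) and 1 higher (8.04%). For no gene of the list were the 6 treated libraries separated from the 6 controls (1.78% of all genes downward, 1.65% upward).

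**Figure D1:**
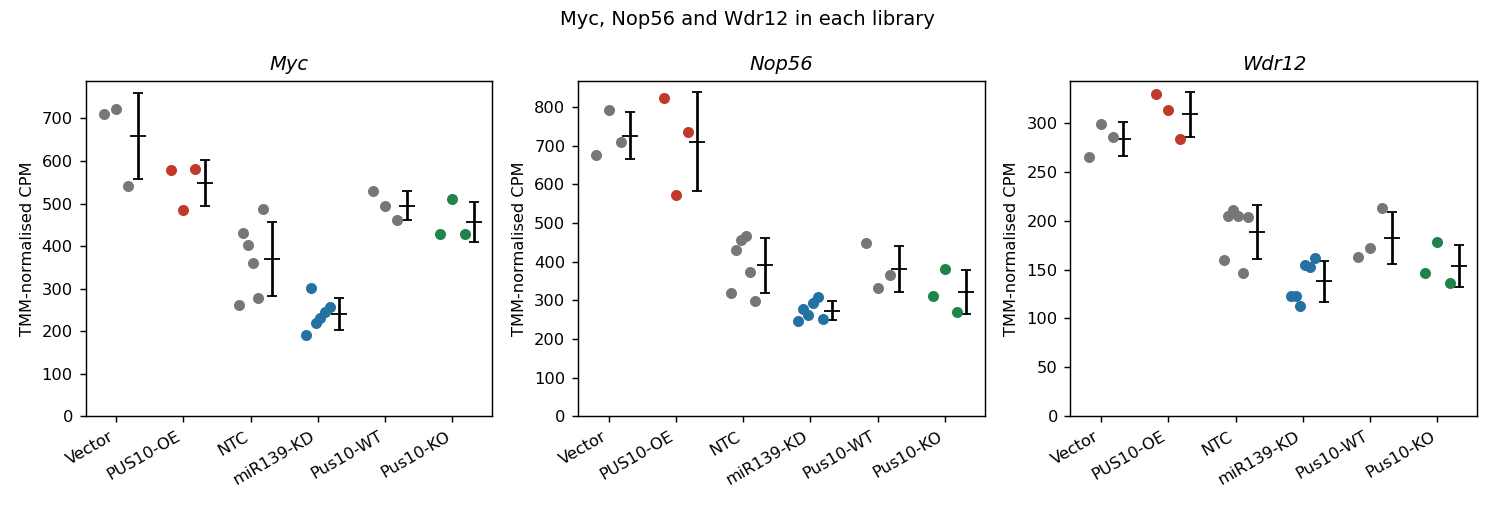
TMM-normalised CPM of Myc, Nop56 and Wdr12 in each library (points), by group, with the mean and SD of the group beside the points. The vertical axes start at 0. In the miR-139 experiment 5 of 6 miR139-KD libraries lie below every NTC library for Myc and for Nop56, and 3 of 6 for Wdr12. Levels were scaled within each experiment.

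Myc ranged from 261 to 486.5 CPM in NTC with a median of 382, and from 189.9 to 302 CPM in miR139-KD with a median of 238. Of the 6 treated libraries, 5 lay below the lowest control, and the sixth, miR139-KD replicate 2, lay above NTC replicates 1 and 5. The log2 fold change was -0.62 (edgeR adjusted p = 0.0460, SE 0.154), which is 1.54-fold lower. Nop56 ranged from 297.5 to 465.5 CPM in NTC with a median of 401.5, and from 248 to 307.5 CPM in miR139-KD with a median of 269. Again 5 treated libraries lay below every control, and only miR139-KD replicate 5 reached above NTC replicate 6. The log2 fold change was -0.51 (edgeR adjusted p = 0.0318, SE 0.118), 1.43-fold lower. Nop56 hosts small nucleolar RNAs in its introns and shares 8.12% of its exonic bases with other annotated genes. Reads that fit more than 1 gene were entered as ambiguous, 12.3 to 20.1% per library here, and stayed out of the gene counts. What this did to the level of Nop56 was not tested.

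Both calls depended on single libraries. Neither gene passed without NTC replicate 2, 3 or 4 or without miR139-KD replicate 1, 3 or 6, where 0 genes of the list were called. Without NTC replicate 5 or miR139-KD replicate 2 only Myc passed. Without NTC replicate 6 or miR139-KD replicate 4 or 5 only Nop56 did. Over all alternatives the log2 fold change stayed between -0.72 and -0.47 for Myc and between -0.58 and -0.46 for Nop56, with edgeR, DESeq2 or limma adjusted p from 0.00285 to 0.144 and from 0.00205 to 0.115.

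The other genes with low p were spread over the roles. Wdr12, which forms the PeBoW complex of large subunit maturation with Pes1 and Bop1, ranged from 147 to 210.5 CPM in NTC (median 204) and from 113 to 161 CPM in miR139-KD (median 138). Its log2 fold change was -0.45 (edgeR adjusted p = 0.0763, SE 0.127), and 3 of 6 treated libraries lay below all controls. Its partners had log2 fold changes of -0.30 (SE 0.260) for Bop1 and -0.02 (SE 0.174) for Pes1, and the difference from Wdr12 was not tested. Nop16 ranged from 135 to 273 CPM in NTC (median 195) and from 116 to 163.5 CPM in miR139-KD (median 144), a log2 fold change of -0.45 (edgeR adjusted p = 0.152, SE 0.154). Rrs1 (-0.45, SE 0.180), Rrp1b (-0.55, SE 0.221) and Gnl2 (-0.39, SE 0.162), further large subunit factors, had edgeR adjusted p from 0.223 to 0.247. With Wdr12 and Nop16, large subunit factors made up 5 of the 10 lower genes, where they are 14 of the 43 genes of the list. Of these 14, 4 lay above 0, and 1 was higher at an unadjusted p under 0.05.

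Among small subunit factors, Noc4l ranged from 84.5 to 156 CPM in NTC (median 137) and from 71.4 to 122 CPM in miR139-KD (median 81.0). The groups overlapped, with 4 treated libraries below all controls (-0.50, edgeR adjusted p = 0.177, SE 0.183). Rrp9, a protein of the U3 small nucleolar ribonucleoprotein, ranged from 94.1 to 135 CPM (median 115) in NTC and from 34.3 to 104 CPM (median 87.6) in miR139-KD. Here too 4 treated libraries lay below all controls (-0.56, edgeR adjusted p = 0.213, SE 0.221), and miR139-KD replicate 6 was the lowest of all. Polr1e, a subunit of RNA polymerase I, had -0.47 (edgeR adjusted p = 0.271, SE 0.203), while Polr1c had -0.04 (SE 0.154). Tsr1 had the lowest log2 fold change of the list, -0.70, with the largest error among these genes (SE 0.380), and 32.3% of its exonic bases are shared with Srr.

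Not every gene leaned down. Ddx18, a helicase of large subunit assembly, was the 1 gene higher at an unadjusted p under 0.05. It ranged from 96.9 to 141.5 CPM in NTC (median 111.5) and from 132 to 209.5 CPM in miR139-KD (median 135), a log2 fold change of 0.33 (edgeR adjusted p = 0.272, SE 0.141). Only 2 treated libraries lay above all controls. The box C/D proteins other than Nop56 lay close to their controls: Nop58 had -0.01 (SE 0.121) and Fbl -0.01 (SE 0.143). The most abundant nucleolar proteins had small values, with -0.16 (SE 0.109) for nucleolin, Ncl, and -0.12 (SE 0.118) for Npm1.

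**Figure D2:**
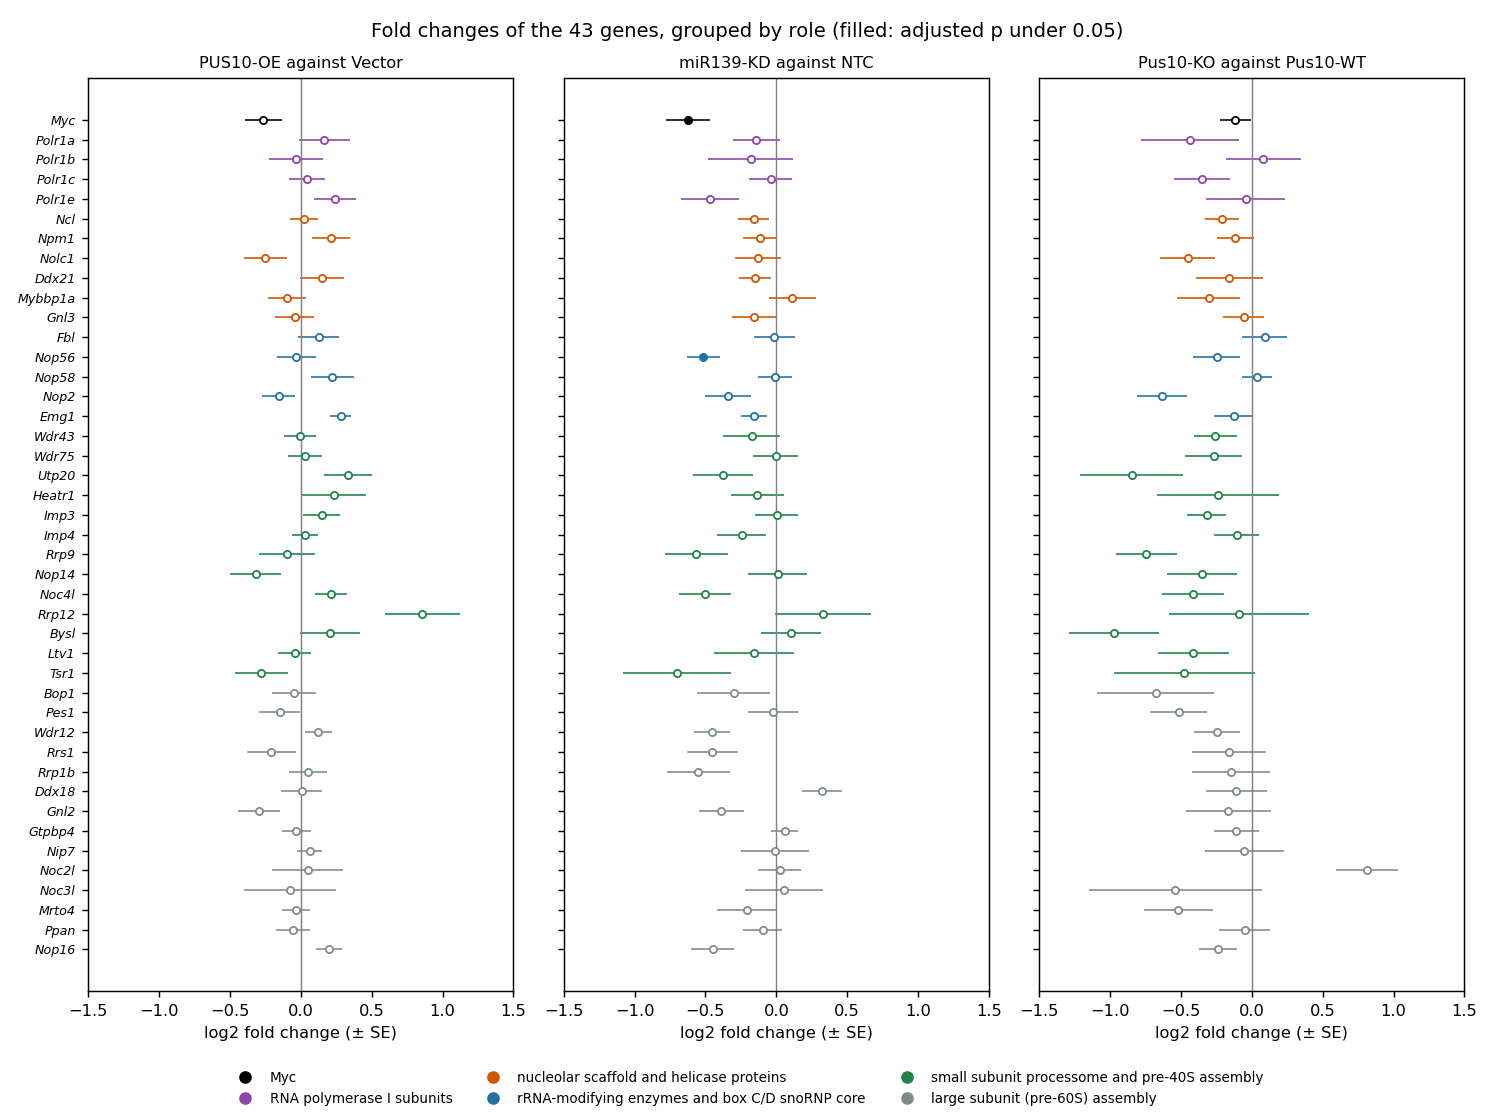
Log2 fold change of each of the 43 genes (points) with its standard error (lines), in 1 panel per comparison, coloured by role. Filled points passed the edgeR test at an adjusted p under 0.05, which were Myc and Nop56 in miR139-KD. In Pus10-KO, 39 points lie left of 0.

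The library medians put these values beside the spread of the controls. For each library, the median over the 43 genes of log2(CPM + 1) minus the control mean was taken. It ran from -0.21 to -0.03 in miR139-KD and from -0.32 to 0.18 in NTC. The lowest of the 12 libraries was a control, NTC replicate 6, in which 36 of 43 genes lay below the mean of the NTC libraries. Without it, the median log2 fold change of the list was -0.21 and 37 genes lay below 0. Without the 3 libraries richest in immunoglobulin RNA, NTC replicate 5 and miR139-KD replicates 5 and 6, the median was -0.20, 35 genes lay below 0, and Wdr12 was the 1 gene called.

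**Figure D3:**
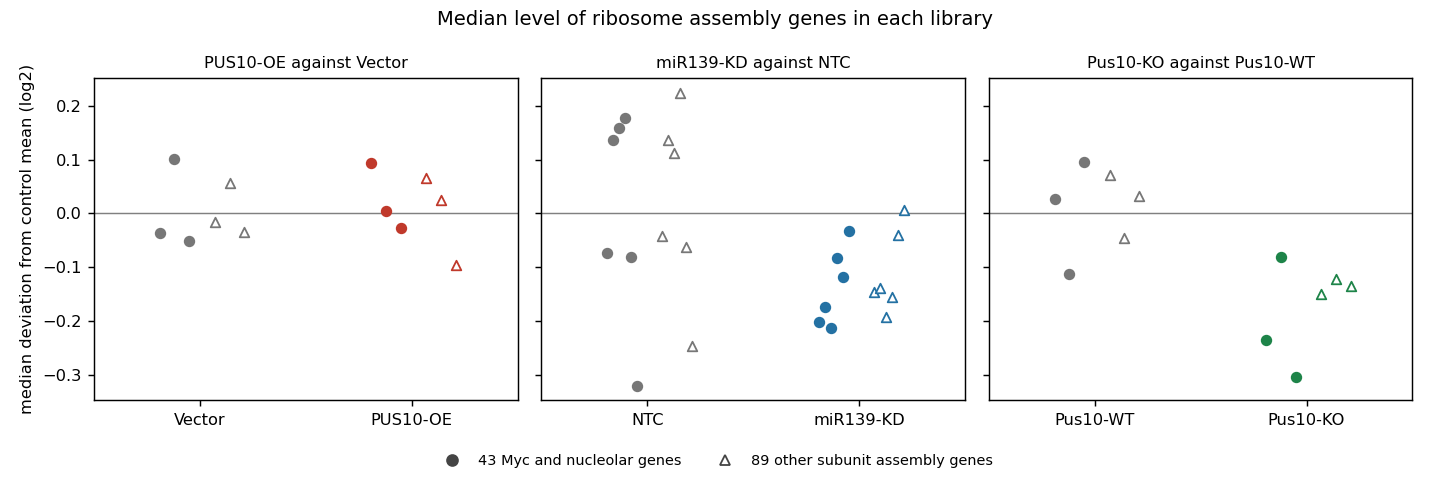
Median deviation from the control mean, in log2(CPM + 1), over the 43 genes (filled circles) and over 89 other subunit assembly genes (open triangles) in each library, by comparison. NTC replicate 6 is the lowest NTC point of both kinds, and the ranges of control and treated libraries overlap for the 43 genes in all 3 panels. For the 89 other genes the Pus10-KO libraries, at -0.15 to -0.12, lie below the Pus10-WT libraries, at -0.05 to 0.07.

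Markers of other cells moved with the knockdown as well. The summed level of 7 multipotent progenitor markers was 352 to 469 CPM in miR139-KD and 911 to 1713 CPM in NTC. All 7 were called lower (1.31% of all genes). The summed level of 7 megakaryocyte markers was 1126 to 2811 CPM against 68 to 316 CPM. Of these, 5 of the 6 tested were called higher (1.41% of all genes). No marker of either list was at 0 in all libraries of the experiment. Of 13 HSC markers 12 lay above 0 (51.4% of all genes), with a median of 0.84, and 2 were called higher (1.41%). At an unadjusted p under 0.05, 8 were higher (8.04% of all genes) and 1 lower (8.0%). The sums of the HSC markers overlapped, at 860 to 1128 and 632 to 1254 CPM. Of 12 B and plasma cell markers 11 were tested and 3 called lower (1.31% of all genes), with a median of -2.18. Their sums were 220 to 15436 and 1392 to 17591 CPM. The sum of 7 T cell markers was 1 to 14 against 41 to 62 CPM, with 4 of them at 0 in all libraries. The 1 tested was called lower (1.31% of all genes). The sum of 10 erythroid markers was 1166 to 9820 CPM in miR139-KD and 737 to 11669 CPM in NTC. For 12 neutrophil and monocyte markers the sums were 1791 to 19852 and 1859 to 21243 CPM. Both of these sums varied widely within each group and overlapped, with 0 genes called. In bulk samples, fewer cells of a type and less RNA per cell cannot be told apart. The part of these markers in the values of Myc, Nop56 and the list was not tested.

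In the libraries labelled Pus10-KO, 39 of 43 genes lay below Pus10-WT (50.3% of all genes), 4 lay above (49.7%) and none passed the test. The median log2 fold change was -0.24, against -0.00 over the 14657 genes tested. With edgeR 0 genes of the list were called lower (0.0478% of all genes) and 0 higher (0.0136%), and the smallest adjusted p was 0.506. At an unadjusted p under 0.05, 6 were lower (3.33% of all genes) and 1 higher (3.53%). In 10 genes the 3 treated libraries lay below all controls (6.79% of all genes), and in 1 above (6.86%). DESeq2 and limma-voom also called 0 genes of the list.

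**Figure D4:**
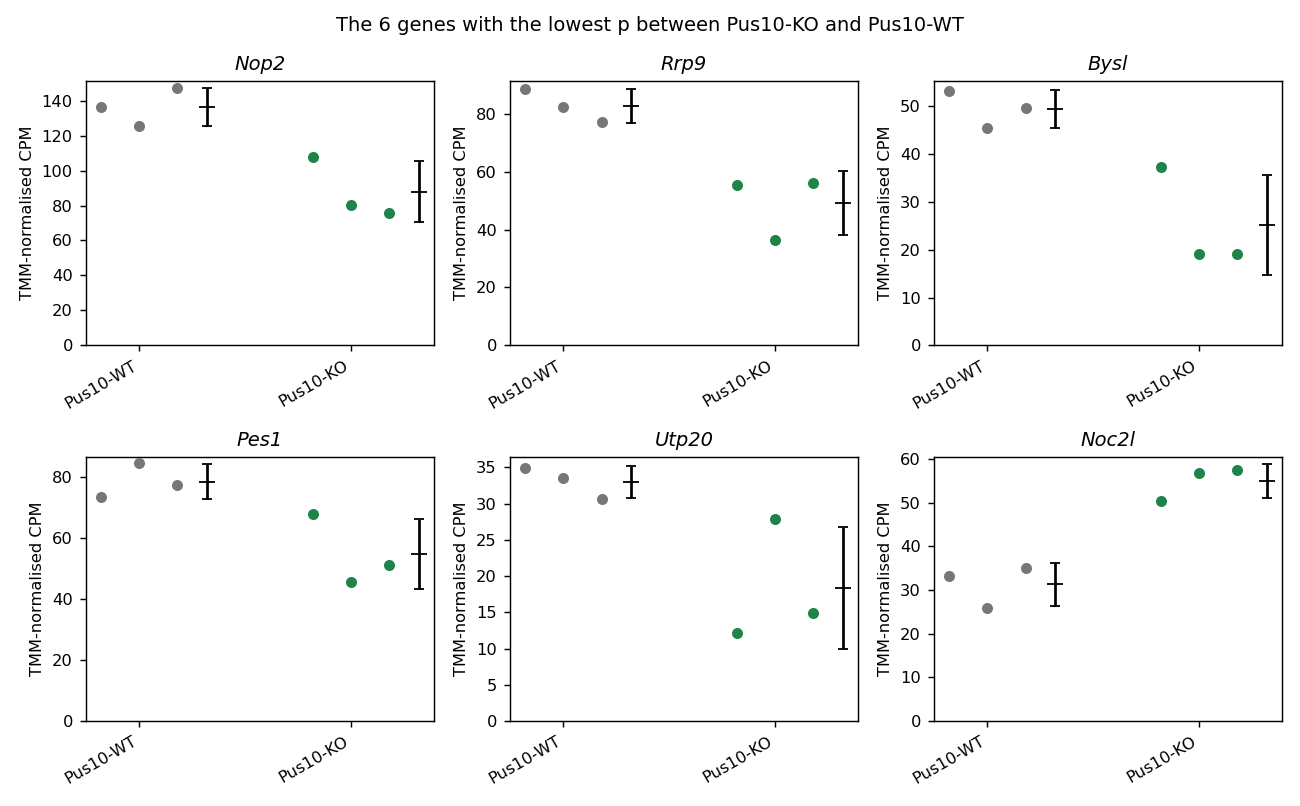
TMM-normalised CPM of 6 genes in the libraries labelled Pus10-WT and Pus10-KO (points), with the mean and SD of each group. The vertical axes start at 0. Nop2, Rrp9, Bysl, Pes1 and Utp20 are lower in all 3 Pus10-KO libraries and Noc2l is higher, and no edgeR adjusted p is under 0.506.

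The small subunit factors were below 0 throughout, 13 of 13, with a median of -0.35. Bysl, which acts late in pre-40S maturation, lay at 53.3, 45.5 and 49.6 CPM in Pus10-WT and at 37.4, 19.1 and 19.2 CPM in Pus10-KO. Replicate 1 was the highest of the treated libraries and still below all controls, and the log2 fold change was -0.97 (edgeR adjusted p = 0.566, SE 0.319). Rrp9 lay at 88.7, 82.3 and 77.2 CPM against 55.5, 36.5 and 55.9 (-0.75, edgeR adjusted p = 0.527, SE 0.216). Utp20 lay at 34.9, 33.5 and 30.6 CPM against 12.2, 27.9 and 14.9 (-0.85, edgeR adjusted p = 0.723, SE 0.362). Its treated libraries spread widely, with replicate 2 closest to the controls. Imp3, a partner of the U3 RNA, had the smallest error of this group (-0.32, edgeR adjusted p = 0.727, SE 0.137) and was also separated, at 101 to 124 CPM against 131 to 142.5.

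Nop2, a methyltransferase of large subunit ribosomal RNA, had the lowest p among the lower genes. It lay at 136.5, 125 and 147 CPM in Pus10-WT and 108, 80.4 and 75.5 CPM in Pus10-KO, with all treated libraries below all controls. The log2 fold change was -0.63 (edgeR adjusted p = 0.508, SE 0.177), 1.55-fold lower. The other modifying proteins were mixed, with 0.09 (SE 0.159) for Fbl, 0.04 (SE 0.106) for Nop58 and -0.25 (SE 0.165) for Nop56. Pes1 lay at 73.2, 84.4 and 77.2 CPM against 67.6, 45.4 and 51.1 (-0.52, edgeR adjusted p = 0.668, SE 0.203). The other PeBoW proteins had -0.68 (SE 0.411) for Bop1 and -0.25 (SE 0.160) for Wdr12, with overlapping groups.

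Of the 4 genes above 0, Noc2l was the 1 with separated groups, and Fbl, Polr1b and Nop58 had log2 fold changes of 0.09 or less. Noc2l, a nucleolar protein of early large subunit assembly, lay at 33.2, 25.8 and 35.0 CPM in Pus10-WT and at 50.5, 56.9 and 57.6 CPM in Pus10-KO, with no overlap. The log2 fold change was 0.81 (edgeR adjusted p = 0.506, SE 0.217), and its unadjusted p was the lowest of the list. Of its exonic bases 20.9% are shared with Samd11. Reads that fit more than 1 gene were entered as ambiguous, 8.52 to 9.40% per library here, and stayed out of the gene counts. Noc3l, its partner in pre-60S particles, had -0.54 (SE 0.611), with groups that overlapped.

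Myc lay at 529.8, 494 and 461 CPM in Pus10-WT and at 429.6, 510.2 and 429.6 CPM in Pus10-KO. The second treated library was above 2 of the 3 controls, and the log2 fold change was -0.12 (edgeR adjusted p = 0.959, SE 0.109). The polymerase subunits had -0.43 (SE 0.346) for Polr1a, the largest subunit, and 0.08 (SE 0.264) for Polr1b. The nucleolar scaffold proteins were below 0 in 6 of 6 cases, from -0.45 (SE 0.195) for Nolc1 to -0.06 (SE 0.146) for Gnl3. By promoter, the 8 genes with the E-box all lay below 0 with a median of -0.44, and 25 of the 28 without it lay below 0 with a median of -0.24. In miR139-KD the medians were -0.21 with and -0.14 without, and in PUS10-OE -0.07 and 0.05. These are descriptions of lists that differ in size and in role. Imp4, Ltv1, Utp20, Tsr1 and Wdr43, which hold the E-box, are small subunit factors. All 13 genes of that role lay below 0 in Pus10-KO, with a median of -0.35. Motif and role were not separated here.

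The library medians of Pus10-KO ran from -0.30 to -0.08 and those of Pus10-WT from -0.11 to 0.10, so that Pus10-WT replicate 2 lay below Pus10-KO replicate 2. Leaving out each library in turn moved the median log2 fold change of the list between -0.29 and -0.18, with 33 to 40 genes below 0. Immunoglobulin RNA differed between these groups, at 29286 to 30672 CPM in Pus10-WT and 36 to 58 CPM in Pus10-KO over all immunoglobulin genes. With only those genes left out, the median was -0.24 and 39 genes lay below 0. Other RNA of cells that express immunoglobulin stayed in that fit, so the part of such cells was not tested. Of 12 B and plasma cell markers, 9 were tested and 8 lay below 0 (median -8.74), with 2 at 0 in all libraries. At an edgeR unadjusted p under 0.05, 7 were lower (3.33% of all genes), and 3 were called lower (0.0478%). Their sums were 113 to 124 CPM in Pus10-KO and 19624 to 27773 CPM in Pus10-WT. This RNA and the group label cannot be told apart here. The summed level of 10 erythroid markers was 561 to 5773 CPM in Pus10-KO and 422 to 1878 CPM in Pus10-WT. Of these, 6 were higher at an unadjusted p under 0.05 (3.53% of all genes), 0 were called and none was at 0 in all libraries. For 12 neutrophil and monocyte markers the sums were 1305 to 4920 and 1106 to 1600 CPM, and the 8 tested all lay above 0 (median 1.67). Of these, 3 were at an unadjusted p under 0.05 (3.53% of all genes) and 0 were called. The sum of 20 G2/M genes was 379 to 889 CPM against 125 to 1464 CPM. The part of these in the values of the list was not tested.

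**Figure D5:**
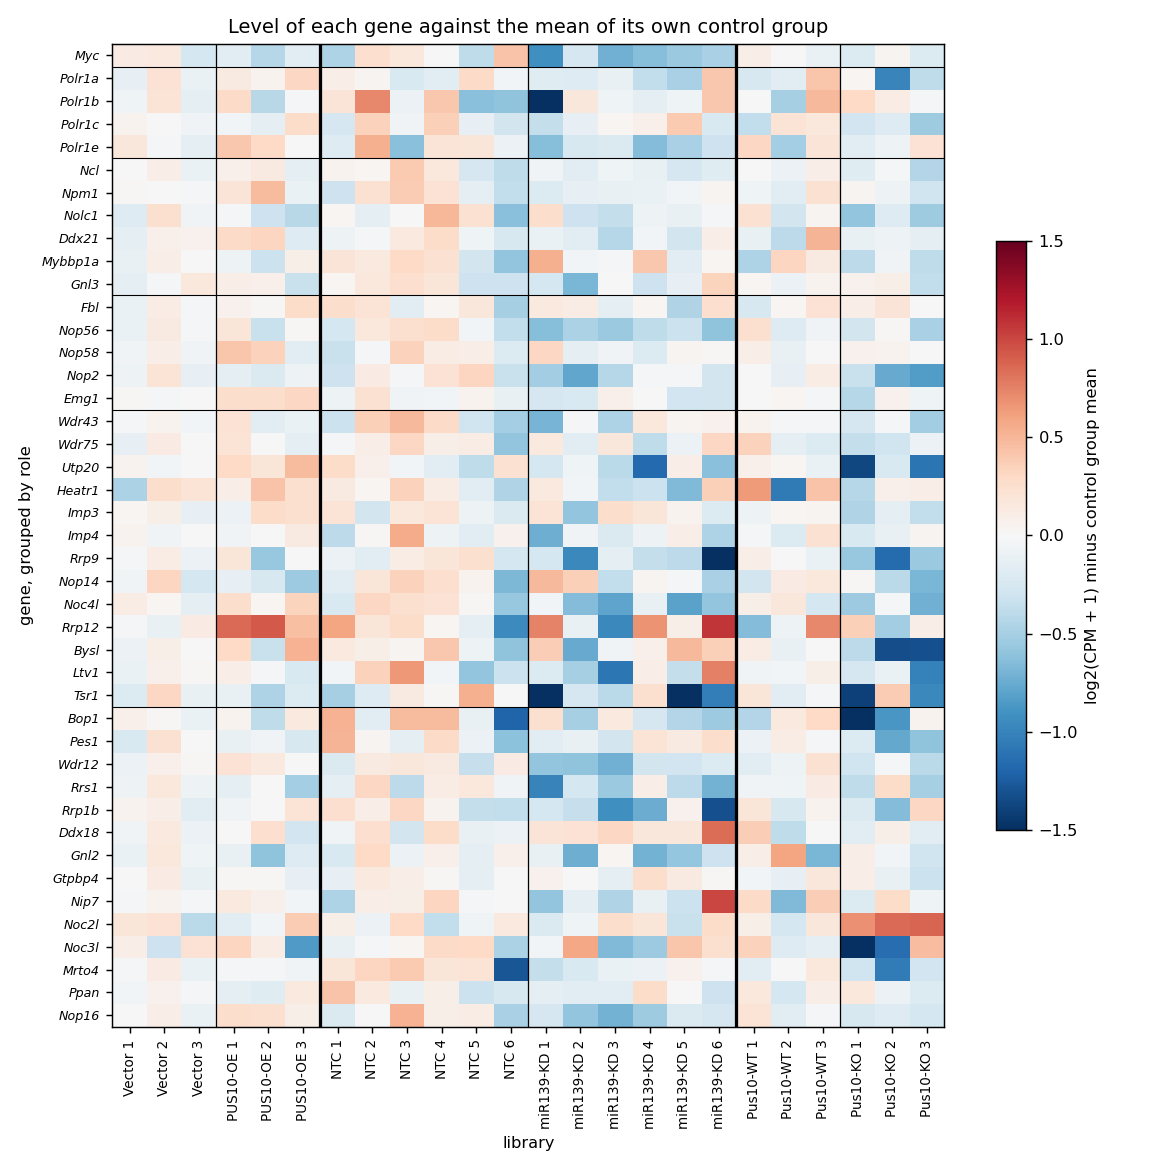
Log2(CPM + 1) of each of the 43 genes (rows, grouped by role) in each of the 24 libraries (columns), minus the mean of the control group of its own experiment. Red is above and blue below that mean, and the colour scale ends at 1.5 on either side. NTC replicate 6 is mostly blue, with 36 of 43 genes below the NTC mean.

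Side by side, 31 of the 43 genes lay below 0 both in miR139-KD and in Pus10-KO, where 27.8% of the 12681 genes tested in both did. With 34 genes below 0 in miR139-KD and 39 in Pus10-KO, most of this overlap was fixed in advance. It therefore says nothing about agreement gene by gene. The experiments have separate controls. Rrp9 was the 1 gene lower at an unadjusted p under 0.05 in both (0.662% of genes), with log2 fold changes of -0.56 (SE 0.221) and -0.75 (SE 0.216), and with -0.10 (SE 0.195) in PUS10-OE. Nop2 had -0.34 (SE 0.161) in miR139-KD and -0.63 (SE 0.177) in Pus10-KO. Utp20 had -0.38 (SE 0.214) and -0.85 (SE 0.362), and 0.34 (SE 0.170) in PUS10-OE. Myc was below 0 in all 3 experiments and passed in 1. Whether any of these values differed between experiments was not tested.

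Other genes of the same pathway were read from companion lists. In miR139-KD, 28 of 42 other small subunit genes lay below 0 (48.6% of all genes), with a median of -0.16. The 1 gene of this list called lower (1.31% of all genes) was Nop9, an RNA-binding protein of the small subunit precursor. It had 120 ± 15.9 CPM in NTC (SD, n = 6) and 75.9 ± 17.2 in miR139-KD (SD, n = 6), a log2 fold change of -0.66 (edgeR adjusted p = 0.0366, SE 0.157). Of 47 other large subunit genes, 28 lay below 0 (48.6% of all genes), with a median of -0.16. Called higher was 1 (1.41% of all genes), Pelp1, a scaffold protein of a pre-60S processing complex. Its level went from 23.2 ± 4.83 to 41.6 ± 9.03 CPM (0.84, edgeR adjusted p = 0.0466, SE 0.209). Of 22 reported Myc targets outside the nucleolus 16 lay below 0 (48.6% of all genes), with a median of -0.20. The 1 called lower (1.31% of all genes) was Ptma, which encodes prothymosin alpha. Its level went from 3099 ± 268 to 2308 ± 260.1 CPM (-0.43, edgeR adjusted p = 0.0116, SE 0.0804). At an edgeR unadjusted p under 0.05, these lists had 8, 8 and 6 lower genes in that order (8.0% of all genes). Higher were 1, 2 and 1 (8.04%). Among 13 tested genes of the Myc network none passed. Mxd4, a repressor that competes with Myc for Max, came nearest, with 54.5 ± 17.1 and 30.6 ± 4.38 CPM (-0.83, edgeR adjusted p = 0.0548, SE 0.215).

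In Pus10-KO the companion lists had 29 of 42 small subunit genes below 0 (50.3% of all genes), with a median of -0.17. So did 30 of 47 large subunit genes (median -0.14) and 17 of 22 Myc targets (median -0.22). None of these genes passed the edgeR test, and at an unadjusted p under 0.05 there were 4, 4 and 5 lower genes in that order (3.33% of all genes) and 0, 1 and 1 higher ones (3.53%). In PUS10-OE the medians were 0.02, -0.01 and 0.13, again with 0 genes called. A list of core proteins of box H/ACA particles, which guide pseudouridylation of ribosomal RNA, and of proteins shared with box C/D particles had medians of 0.13, -0.18 and -0.11 in PUS10-OE, miR139-KD and Pus10-KO, with 0 of 12 called in each. Nhp2, a core protein of box H/ACA particles, lay at 408 ± 11.2 CPM in Vector (SD, n = 3) and 554 ± 21.4 in PUS10-OE (SD, n = 3), with a log2 fold change of 0.44 (edgeR adjusted p = 0.322, SE 0.0758).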

How the data were processed

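Smart-seq2 libraries, which do not mark the strand, were made from sorted HSCs, per the labels' protocols. The deposited values were raw counts of reads per gene: per the submitters' processing notes, the authors used HISAT2 2.1.0, HTSeq 0.11.2 and the mm10 build. The release of their gene annotation was not given in the sources used here. GENCODE M21 gave the symbols (55394 of 55487 IDs), and 5 summary entries stayed out of totals and tests. The reads carry no molecular identifiers. No 2 libraries of 1 group were alike within sampling noise.

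The 3 comparisons were each fitted alone in R 4.3.3 by edgeR 4.0.16 (filterByExpr, TMM, robust quasi-likelihood F test, two-sided). Benjamini-Hochberg adjustment ran over all genes tested, and genes with an adjusted p under 0.05 were called. Standard errors are the size of the log2 fold change divided by the square root of F. The scripts were tested on simulated data. The 43 genes, their roles, the companion lists and the tests were chosen with earlier results of these data known. In each comparison the 6 genes of the list with the lowest p were named in full, with Myc. Other genes were named after their values were seen.

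The fits were repeated with RLE and upper-quartile scaling, with no filter and with a filter of 10 CPM, with a replicate block, with the 6 groups fitted together, with single libraries left out, and by DESeq2 1.42.0 and limma-voom with quality weights (limma 3.58.1). Added after seeing the data were fits without the least correlated libraries (NTC replicate 6 and miR139-KD replicate 1), without the 3 libraries richest in immunoglobulin RNA, and without immunoglobulin genes. Plots were made in Python 3.11.15 with matplotlib 3.10.9.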

Additional observations from a re-analysis of the deposited data

Results flagged for a closer look

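Each gene of the list was checked in the NTC and miR139-KD groups for a library that stood apart from the other 5, as were the library medians of the list. Of 88 such groups of values 5 were marked (5.68%), where chance marks about 1 in 20. NTC replicate 6 had the lowest Wdr75 level, at 57.0 CPM against 85.3 to 108 CPM in the other NTC libraries, and the lowest Mrto4 level, at 66.9 CPM against 186 to 216 CPM. Wdr75 is a factor of the small subunit processome, and Mrto4 acts in large subunit assembly. In miR139-KD replicate 1, Polr1b, the second largest subunit of RNA polymerase I, lay at 21.4 CPM against 58.9 to 86.3 CPM. In miR139-KD replicate 6, Ddx18 lay at 209 CPM against 132 to 146 CPM, and Nip7, a large subunit factor, at 213 CPM against 69.7 to 97.9 CPM.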

How the results depend on the processing

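Over the alternatives run, the median log2 fold change of the 43 genes ranged from -0.02 to 0.08 in PUS10-OE, from -0.21 to -0.11 in miR139-KD and from -0.29 to -0.18 in Pus10-KO. The 2 genes of the list called in miR139-KD became 1 with no filter, with limma-voom, without the least correlated libraries and without the 3 immunoglobulin-rich libraries, 3 with DESeq2, 4 with all 6 groups in 1 fit, and 0 to 2 with each library left out. Counts over all genes moved more. In miR139-KD the 361 calls became 795 with DESeq2, 792 with all 6 groups in 1 fit, 212 without the least correlated libraries, 201 without the immunoglobulin-rich libraries, and 196 to 340 with each library left out. In PUS10-OE the 0 calls became 177 with DESeq2, 9 at a mean CPM of at least 10 and 5 with all 6 groups, none of them in the list. In Pus10-KO the 9 calls became 152 with DESeq2, 3 with limma-voom, 15 with all 6 groups, and 0 to 10 with each library left out, with 0 without Pus10-KO replicate 2 or 3. The cause of these moves was not tested.

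With the replicate number as a block, calls over all genes were 188 in miR139-KD and 2 in Pus10-KO, and 1 gene of the list, Myc, was called. Deviations of same-numbered libraries correlated between -0.02 and 0.02, not every library correlated best with its own number, and the libraries share only a number. The median SE of the list was 0.137 in PUS10-OE, 0.165 in miR139-KD and 0.216 in Pus10-KO, and 11 of 43 genes had under 500 counts in some library in each of the 2 shallower experiments.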

Other observations

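Genes of G2/M, the cell cycle phases of preparation for and passage through mitosis, showed 19 of 20 log2 fold changes above 0 in PUS10-OE (50.7% of all genes), with a median of 0.19 and 0 called by edgeR. At an unadjusted p under 0.05, 6 were higher (4.47% of all genes). In the same libraries the summed level of 7 multipotent progenitor markers was 999 to 1015 CPM in PUS10-OE and 1355 to 1408 CPM in Vector, and that of 7 megakaryocyte markers 256 to 458 against 156 to 189 CPM. The part of these markers was not tested. Cenpf, a kinetochore protein, lay at 55.5 ± 1.92 CPM in Vector (SD, n = 3) and 91.5 ± 9.40 CPM in PUS10-OE (SD, n = 3), 0.72 higher on the log2 scale (SE 0.118, edgeR adjusted p = 0.298). In miR139-KD 13 of 20 lay above 0, with a median of 0.12. In Pus10-KO 14 of 20 lay below 0, with a median of -0.43, and Pus10-WT replicates 2 and 3 held both the lowest and the highest sums of these genes in that experiment, 125 and 1464 CPM.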
